A study of Drosophila melanogaster with 4 samples.

Results

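Utx, Nap1 and Smr, which encode a histone demethylase, a histone chaperone and a transcriptional corepressor, were followed in heads of Drosophila melanogaster males fed sodium valproate (NaVP). They are 3 of 524 named genes that had a clone measured on 3 or 4 of the 4 cDNA arrays. They were chosen by function, because valproate inhibits histone deacetylases, and by measured values: a clone of each had log ratios on enough arrays, and Utx was selected on its low mean log ratio in earlier work on these arrays. The values of the 3 genes are therefore given as a description. Where a fit over all clones did or did not call one of them, the call is reported but is not independent evidence.

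The arrays compared heads of unmated Oregon-R males, 10 to 11 days old, kept on food with 0.33 mg/ml NaVP for 3 days with heads of such males kept on normal food for the same time. Vials held 30 flies, and no mutation or transgene was carried by either group. Each array set a pool of NaVP heads against a pool of normal-food heads, and per the series' design text the 4 arrays were biological replicates. On arrays 1 and 2 the NaVP pool was labelled with Cy5, and on arrays 3 and 4, the swap arrays, with Cy3.

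Each deposited value is a log ratio of the 2 channels, taken here as log2. Each array was centred on its median, since the medians of 1.01, 1.05, 0.54 and 0.24 on arrays 1 to 4 lay far from 0. The order of the channels in the ratio is not given in the sources used here, so every result has 2 readings. In the turned reading (swap arrays turned), the ratio is taken to be Cy5 over Cy3, and the sign of arrays 3 and 4 is changed. In the as-deposited reading, all 4 are taken as NaVP over normal food already. Cy5 is channel 1 of each array in the labels, which would go with the turned reading. The labels do not state whether arrays 3 and 4 were turned before deposit, so neither reading is settled. "Higher" and "lower" refer to NaVP heads and would trade places if the ratio on arrays 1 and 2 were normal food over NaVP. Values were sparse: 2615, 662, 1877 and 1602 of 13824 clones had one on arrays 1 to 4. As a check of the tissue, 7 of the 11 photoreceptor genes on the array were measured on 3 or more arrays, as were 2 of 3 neuronal, 2 of 3 muscle and 1 of 4 glial genes. Head fat body genes and genes of testis and accessory gland, which a head lacks, were each at 1 of 6 (Obp99b and ocn). These classes thus do not part head genes from others. Of all clones with 1 gene symbol, 7.33% were measured on 3 or more arrays. Over the 1030 clones, Pearson's r as deposited was 0.55 and 0.39 between arrays of the same dye orientation and from -0.14 to 0.34 between arrays of opposite orientation. RNA of whole heads was measured, so fewer cells of a type and less RNA per cell cannot be told apart.

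DNA in the nucleus is wound around histones, and chemical marks on the histone tails help to set whether a gene is read. Acetyl groups are added by acetyltransferases and removed by deacetylases, the enzymes that valproate inhibits. Utx removes methyl groups from lysine 27 of histone H3, a mark of silent genes laid down by the Polycomb group, and works in a complex with the methyltransferase Trr. Nap1 binds histones and helps to place them on DNA as nucleosomes are built. Smr, also called SMRTER, is a large corepressor that binds the unliganded ecdysone receptor and brings repressor proteins, deacetylases among them, to its target genes.

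Utx was lower in NaVP heads on all 4 arrays with the swap arrays turned. Its clone with 4 values (NCBI gene 34377) had deposited log2 ratios of 0.588 and 0.458 in its adjacent spots on array 1, and of 0.609 and 0.266 on array 2. On the swap arrays its spots read 0.914 and 0.797 on array 3 and 0.73 and 0.641 on array 4. Centred, the clone stood at -0.49 and -0.61 on arrays 1 and 2 and at 0.32 and 0.44 on arrays 3 and 4, so the sign followed the dye orientation on every array. The turned mean was -0.46 ± 0.12 (SD, n = 4), a 1.38-fold lower level in NaVP heads if the logarithm has base 2, with single arrays from -0.61 to -0.32. Only 1 of the 1030 clones on at least 3 arrays had a lower mean, where the median over these clones was -0.0094 and the 5th percentile -0.30. This rank is what brought Utx into the set, and it moves with the processing: counted from the lowest, Utx was 2nd here, between 8th and 22nd with an array left out, 7th with dye orientation as a second coefficient, 53rd without centring and 29th of 1621 clones on 2 or more arrays. As deposited, the arrays opposed each other and the mean was -0.085 ± 0.54 (SD, n = 4), with 258 of the 1030 clones lower.

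Ranks within an array are the same with or without centring, so the place of Utx among the 1030 clones restates these values. It is no separate support. With no centring at all, the turned mean of Utx was -0.15 ± 0.73 (SD, n = 4). On arrays 1 and 2 only 4.85% and 3.88% of the 1030 clones with a value there lay below Utx, while on arrays 3 and 4 85.3% and 91.6% did. Among all clones with a value on the array, whatever their coverage elsewhere, the shares below Utx were 13.9%, 9.06%, 87.3% and 93.3% on arrays 1 to 4. Of the 453 clones on all 4 arrays, 31 (6.84%) lay below 0 on arrays 1 and 2 and above 0 on arrays 3 and 4 after centring, and 48 (10.6%) did the opposite. Signs that did not turn with the dyes were more frequent, with 93 clones (20.5%) above 0 and 26 (5.74%) below 0 on all 4 arrays. Here 0 is the median of all clones on an array. The medians of the 453 clones lay 0.17, 0.079, 0.035 and 0.084 above it on arrays 1 to 4. This choice of 0 favours signs above it. Utx was the 1 clone of the 31 that kept a distance of at least 0.32, its own smallest value, on every array. That bar was set from Utx itself, on the values that led to its choice, so the count is a description. Its single spots gave means of -0.43 ± 0.046 and -0.50 ± 0.22 (SD, n = 4 each) with the swap arrays turned, so both spots carried the pattern.

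A second Utx clone had a value on array 1 alone. Its spots read 0.739 and 0.681, which is -0.30 after centring, below 0 like the first clone on that array. Of all clones measured on array 1, 24.4% lay below the second clone and 13.9% below the first. The 2 clones differed by 0.187, against a median difference of 0.29 over the 74 genes with exactly 2 measured clones on array 1. The median over all pairs of named clones there was 0.41. A larger difference than that of Utx was seen in 47 of the 74 genes, so its agreement was not unusual. No swap array measured the second clone, so its place under the dye swap is unknown.

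**Figure D1:**
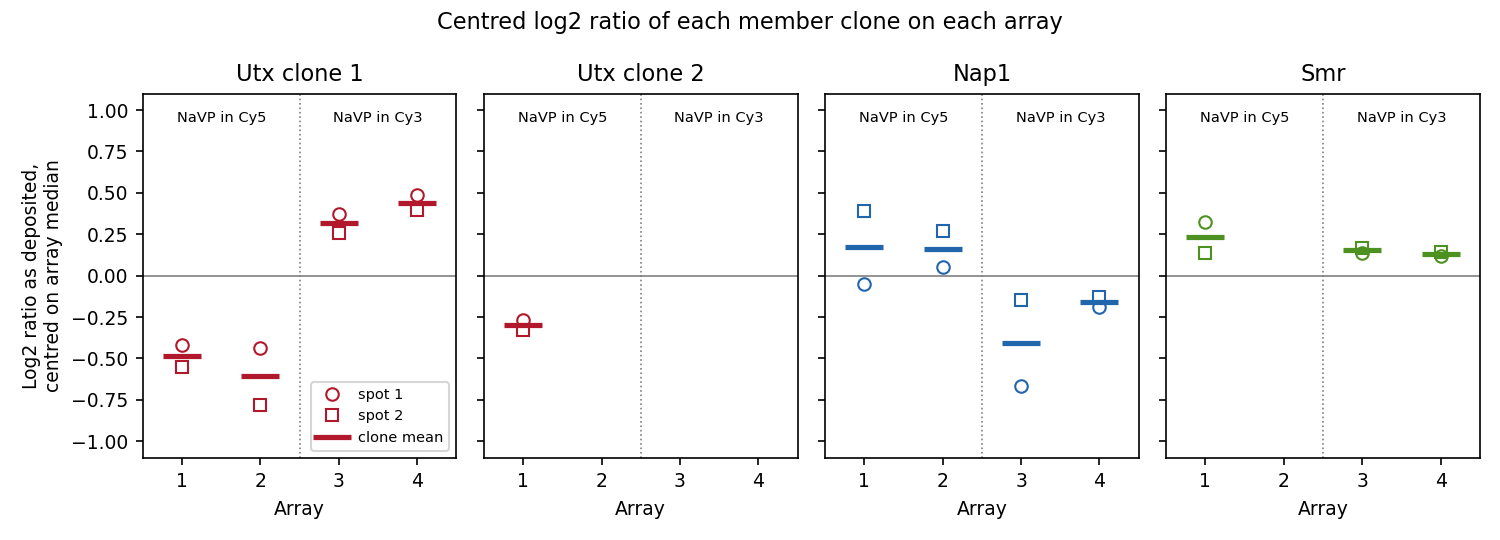
Log2 ratio as deposited, centred on the array median (y axis), of each clone of Utx, Nap1 and Smr on arrays 1 to 4 (x axis). Open circles and squares are the adjacent spots of a clone and bars their mean; the dotted line parts arrays with NaVP in Cy5 from arrays with NaVP in Cy3. The bars of Utx and Nap1 change sign across the dotted line in opposite ways, while Smr stays above 0.

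As the mean of its adjacent spots, Nap1, the nucleosome assembly chaperone (NCBI gene 37798), ran opposite to Utx on every array. Its spots read 0.958 and 1.403 on array 1, 1.097 and 1.318 on array 2, -0.126 and 0.395 on array 3, and 0.056 and 0.118 on array 4. The centred clone values were 0.17 and 0.16 on arrays 1 and 2 and -0.41 and -0.16 on arrays 3 and 4. Turned, all 4 were above 0, from 0.16 to 0.41, with a mean of 0.22 ± 0.12 (SD, n = 4), a 1.17-fold higher level in NaVP heads. That mean was not extreme: 131 of the 1030 clones had a higher one. The as-deposited mean was -0.058 ± 0.28 (SD, n = 4), with arrays on both sides of 0.

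On arrays 1 to 3 the adjacent spots of Nap1 differed more than those of most clones. The differences were 0.445, 0.221, 0.521 and 0.062 on arrays 1 to 4, against medians over all spot pairs of 0.181, 0.147, 0.144 and 0.13, and spot 2 read higher on all 4 arrays. Turned, spot 1 had a mean of 0.21 ± 0.32 and spot 2 of 0.23 ± 0.12 (SD, n = 4 each), close to each other. Spot 1 did not keep the sign of the clone mean on array 1. Centred as deposited, it stood at -0.0515, 0.051, -0.67 and -0.19 on arrays 1 to 4. Spot 2 kept that sign on all 4 arrays, at 0.39, 0.27, -0.14 and -0.13. As deposited, the spots had means of -0.21 ± 0.32 and 0.099 ± 0.27 (SD, n = 4 each), on opposite sides of 0. Of the 453 clones on 4 arrays, the 48 above shared the sign pattern of Nap1, and 15 (3.31%) did so with at least its smallest distance from 0, 0.16, on every array, Nap1 included.

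Smr, the corepressor of the ecdysone receptor (NCBI gene 32225), showed no turn of sign with the dyes. It had values on arrays 1, 3 and 4 only. Its spots read 1.336 and 1.148 on array 1, 0.679 and 0.707 on array 3, and 0.366 and 0.386 on array 4. Centred, these were 0.23, 0.15 and 0.13, all above 0 and close together. The as-deposited mean was 0.17 ± 0.053 (SD, n = 3), a 1.13-fold higher level in NaVP heads, and 32 of the 1030 clones had a smaller SD. That count sets an SD over 3 values beside SDs over 4 values for 453 of the clones, so it mixes unlike sample sizes. The value depends on where 0 lies: centred on the clones with 4 values, the mean was 0.077 ± 0.037 (SD, n = 3). Over all 1030 clones the median mean in this reading was 0.050, and 272 clones lay higher than Smr. The turned mean was -0.017 ± 0.22 (SD, n = 3). The orientation with NaVP in Cy5 rests on array 1 alone, so this plain mean mixes treatment and dye. Weighting the orientations equally gave 0.045 turned and 0.19 as deposited.

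When limma was fitted to the mean of every clone (Benjamini-Hochberg adjustment, threshold 0.05), none of the 3 clones passed under either reading. That fit called 1 of 1030 clones (0.0971%) with the swap arrays turned and 8 (0.777%) with the swap arrays as deposited, so calls were rare everywhere. At an unadjusted p under 0.05 there were 71 and 145 clones. Without centring, all 3 were among the 745 clones (72.3%) called as deposited, a fit that tests the offset of the arrays. With dye orientation as a second coefficient the fit called 32 clones (3.11%) with the swap arrays turned, Utx among them as lower, and 59 (5.73%) as deposited, none of the 3 among them. The Utx call comes from the contrast that led to its choice and is not independent evidence.

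**Figure D2:**
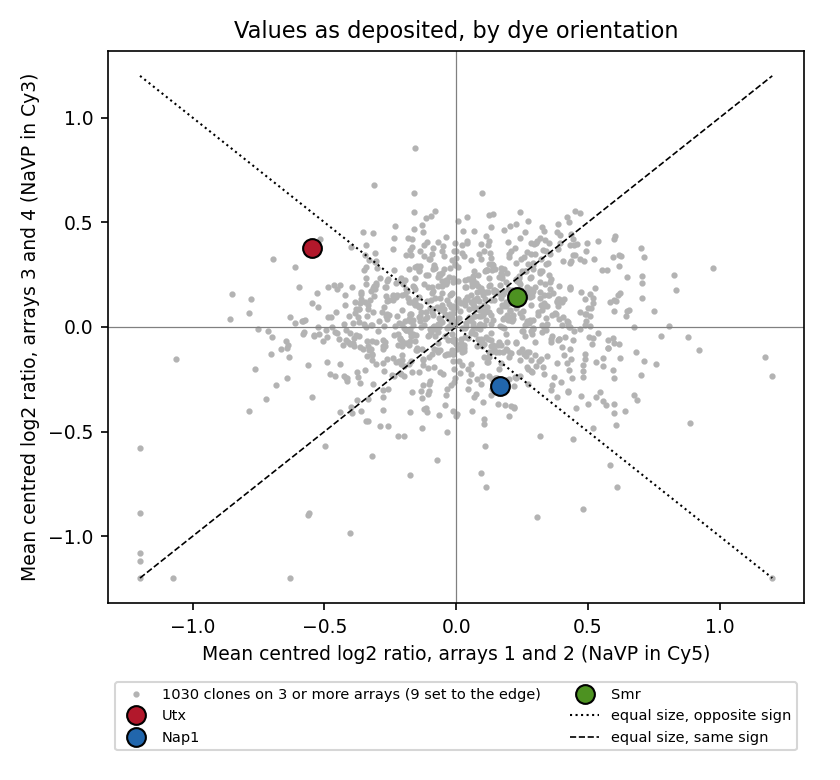
Mean centred log2 ratio as deposited on arrays 1 and 2, with NaVP in Cy5 (x axis), against that on arrays 3 and 4, with NaVP in Cy3 (y axis), for the 1030 clones on at least 3 arrays (grey; the few beyond 1.2 are drawn at the edge). Utx (-0.55 and 0.38) and Nap1 (0.17 and -0.28) lie near the dotted line of equal size and opposite sign, Smr (0.23 and 0.14) near the dashed line of equal size and same sign.

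A difference between clones on the same array needs no centring, because the array's offset cancels. Nap1 minus Utx was 0.66 and 0.77 on arrays 1 and 2 and -0.72 and -0.60 on arrays 3 and 4. Turned, this difference was 0.69 ± 0.075 (SD, n = 4), nearly the same on every array, although each gene alone had an SD of 0.12. The median SD of such a difference over all 102378 pairs of the 453 clones on 4 arrays was 0.36, and 0.96% of pairs had a smaller one. The pair was singled out after its values were seen. As deposited, the difference was 0.027 ± 0.80 (SD, n = 4). Its steadiness when turned rests on averaged Nap1 spots, which lay 0.445 apart on array 1 and 0.521 apart on array 3. The difference from Utx was not computed for single spots.

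Smr stood between Nap1 and Utx less steadily. In the turned reading, Smr minus Utx was 0.72, 0.16 and 0.31 on arrays 1, 3 and 4, with a mean of 0.40 ± 0.29 (SD, n = 3). Nap1 minus Smr was -0.062, 0.56 and 0.29 on these arrays, with a mean of 0.26 ± 0.31 (SD, n = 3), so their order changed on array 1. Of the neighbours in the turned order Utx, Smr, Nap1, only Utx and Smr kept their order on every shared array. In the as-deposited reading only Nap1 minus Smr kept its sign on all shared arrays, at -0.30 ± 0.25 (SD, n = 3).

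**Figure D3:**
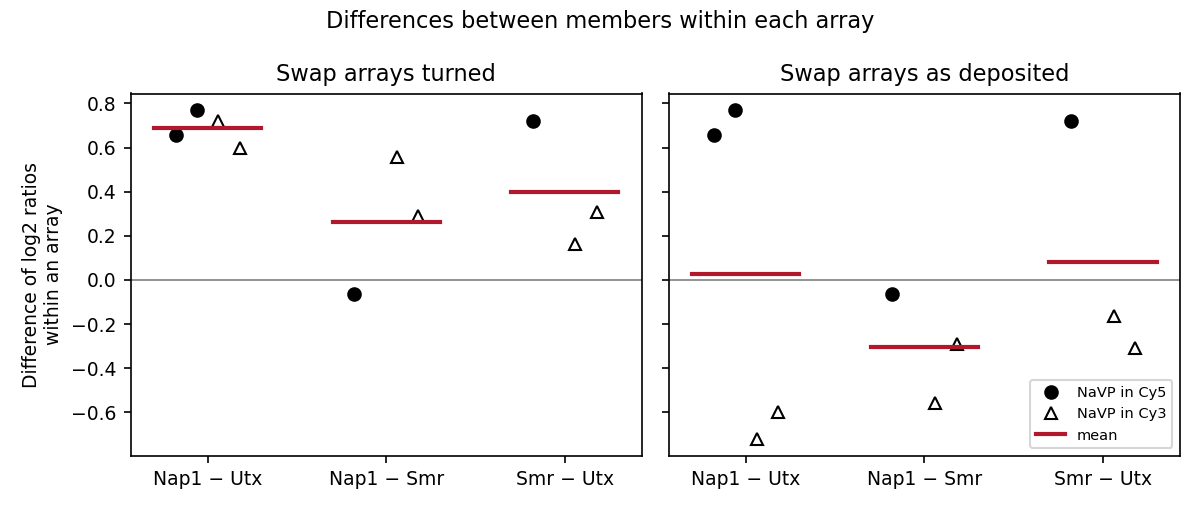
Difference of log2 ratios between members within an array (y axis), for 3 pairs (x axis), with the swap arrays turned (left) and as deposited (right). Filled circles are arrays with NaVP in Cy5, open triangles arrays with NaVP in Cy3, and lines the means. Nap1 minus Utx lies between 0.60 and 0.77 on all 4 arrays when turned.

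The 3 genes were part of a wider set of 170 genes of chromatin and of nuclear receptors and factors that recruit Smr. Of these, 88 had a clone on the array, with 115 clones, and 34 clones of 31 genes had a value on at least 1 array. On at least 3 arrays there were 8 clones of 8 genes, 6.96% of the 115, against 7.33% of all clones with 1 gene symbol. Beside Utx, Nap1 and Smr they were Nasp, CtBP, ERR, svp and Hnf4. The median of the 8 means was -0.064 with the swap arrays turned (2 above 0, 6 below) and 0.10 as deposited (5 above 0, 3 below), against -0.0094 and 0.050 over all 1030 clones.

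Among histone chaperones, Nasp, which binds histone H3, had the sign of Nap1 on arrays 1, 3 and 4 and the opposite sign on array 2. It stood at 0.048, -0.12, -0.55 and -0.46 on arrays 1 to 4, a mean of 0.23 ± 0.32 turned and -0.27 ± 0.28 as deposited (SD, n = 4 each). The gene of the large subunit of chromatin assembly factor 1, which works behind the replication fork, had 2 clones on array 4 alone, at -0.013 and -0.77 as deposited. The clones of this gene thus disagreed. Hira, which places the replacement histone H3.3, stood at -0.23 on array 1.

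Among lysine demethylases, Utx was the only one of 12 on the array with a clone on at least 3 arrays. Kdm5 (lid), which removes methyl groups from lysine 4 of H3, stood at -0.51 on array 2 and Jarid2, a JmjC protein of the Polycomb complex without demethylase activity, at -0.33 on array 1, both below 0 with NaVP in Cy5 as Utx was. Kdm3, a JmjC protein, stood at 0.047 and Su(var)3-3, the fly LSD1, at -1.42 as deposited on array 3. Single arrays of 1 orientation cannot part treatment from dye. Mnn1, the fly menin and a partner of H3K4 methyltransferases, had 0.28 and 0.14 on arrays 3 and 4, on the same side of 0 as Utx there. The H3K27 side, on which Utx acts, was nearly unmeasured: of 7 Polycomb genes on the array only esc, a core subunit of the H3K27 methyltransferase complex, had a value, 0.13 on array 4.

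Among corepressors, CtBP had the nearest coverage to Smr. Its better clone stood at -0.054, 0.47 and -0.029 on arrays 1, 3 and 4, a mean of -0.17 ± 0.27 turned and 0.13 ± 0.30 as deposited (SD, n = 3 each), and a second clone at -0.0055 on array 1. The SD of CtBP as deposited was thus wider than that of Smr on the same 3 arrays. Groucho (gro) had 0.15 and Sap30, of the Sin3 deacetylase complex, 0.19 on array 3. Sap130 of the same complex had -1.16 and MTA1-like, of the NuRD complex, 0.089 on array 1.

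Few genes of enzymes that add or remove acetyl groups had a value. Missing values were common throughout: 29.5% of all clones with 1 gene symbol had one on at least 1 array. Of 5 deacetylase and sirtuin genes on the array only Sirt1, an NAD-dependent deacetylase of another class, had a value, 0.17 on array 1. Of 9 acetyltransferase genes only chm, of the MYST family, did, at 0.25 on array 1. Of 10 genes of chromatin remodellers only XNP, the fly ATRX, did, at -0.11 as deposited on array 4, and of 3 histone genes none. Clones just under the limit of 3 arrays, with 2 values each, were those of Mnn1, HP1b and the gene of heterochromatin protein HP1a.

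**Figure D4:**
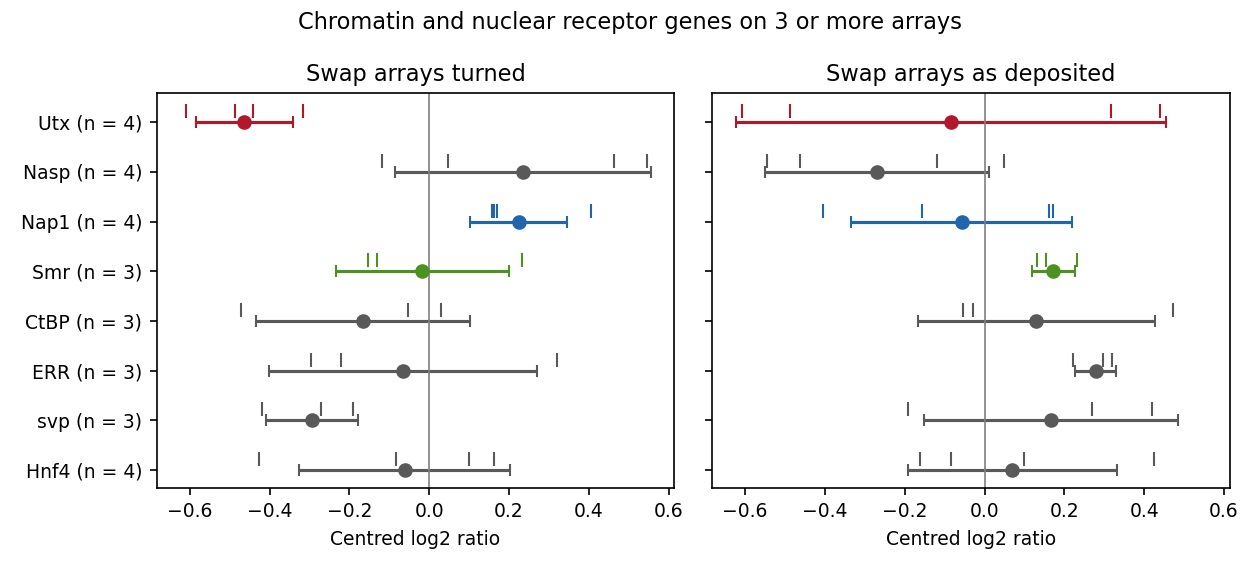
Mean centred log2 ratio (x axis; points, with the SD over arrays as bars) of the 8 chromatin and nuclear receptor genes with a clone on at least 3 arrays, with the swap arrays turned (left) and as deposited (right); ticks above each point are single arrays. Turned, every array of Utx (-0.61 to -0.32) and of svp lies below 0 and every array of Nap1 above it; as deposited, every array of Smr and of ERR lies above 0.

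The clones most like each member were found by Euclidean distance over the arrays that measured it, a measure that is the same under both readings. Over 4 arrays and 223 named clones, Utx was nearest to Eph, a receptor tyrosine kinase gene (distance 0.33), with centred values of -0.45, -0.44, 0.23 and 0.17 on arrays 1 to 4. Next came Parp1, poly(ADP-ribose) polymerase (0.43), at -0.56, -0.37, 0.31 and 0.089, and Alg-2 (0.64). Their turned means were -0.32, -0.33 and -0.19. Utx had the lowest turned mean of the 453 clones on 4 arrays, so any neighbour had to lie above it. Nap1 was nearest to CG6180 (distance 0.12; turned mean 0.23), VhaSFD, a subunit of the vacuolar proton pump (0.18; 0.14), and lost (0.26; 0.14). Smr was compared over 3 arrays with 496 named clones. Its nearest were Taf3, of the general transcription factor TFIID (distance 0.059), GstD1, a glutathione transferase (0.063), and qm (0.076), with as-deposited means of 0.16, 0.14 and 0.21. Over the same 223 clones, the distances of Utx to its neighbours were longer than those of Nap1. As Utx was chosen for its low mean, these distances are a description only.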

How the data were processed

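The deposited values are 1 log2 ratio per spot and array, normalised by the authors; base 2 is taken from the scanner software's convention. Per the series' design text, the authors quantified the slides in GenePix Pro 6.0, normalised ratios in Acuity 4.0, filtered spots on saturation, flags, uniformity and signal to noise, and ran SAM 2.21. Some of the deposited values lie below 0 on every array. No intensities were used here, and the number of arrays limits the precision. Empty cells are spots that the table does not list.

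Adjacent spots of a clone were averaged (all 7609 annotated pairs share their gene), arrays were centred on the median of all their clones, and clones on at least 3 of 4 arrays were kept (1030 of 13824). Genes were named from the platform annotation, with symbols updated by NCBI gene ID or synonym; 7558 clones have 1 symbol, 51 several and 6215 none here. Fits over all 1030 clones used limma 3.58.1 under R 4.3.3, after tables were prepared in Python 3.11.15. They used lmFit on an intercept alone (or with dye orientation as a second coefficient) followed by eBayes. Only the fit on an intercept alone was also run on simulated data, and the fit with the dye coefficient was not. The members and gene lists were chosen with earlier results of these data known. All genes of the lists with a value are named; genes most like a member are the 3 named clones at the smallest distance. Alternatives concerned centring, scaling, dye orientation, the array minimum, discordant spots and each array left out.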

Additional observations from a re-analysis of the deposited data

Results flagged for a closer look

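The value of Nap1 on array 3 lay far from its other arrays with the swap arrays turned: 0.41 against 0.17, 0.16 and 0.16 on arrays 1, 2 and 4. The gap took up 0.946 of the whole range, above Dixon's critical value for 4 values. Array 3 is also where its adjacent spots differed most, by 0.521 (-0.126 and 0.395 as deposited). Without that array the mean was 0.16 ± 0.0068 (SD, n = 3). Of 4 such groups checked (Utx and Nap1 under each reading) this was the only one past the critical value, and chance passes about 5% of groups.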

How the results depend on the processing

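No paired analysis was possible because each array already holds 1 ratio of a treated to a control pool and the 4 ratios form a single group. The mean of Utx was below 0 with the swap arrays turned, and that of Nap1 above 0, under each alternative run. Without centring the turned means were -0.15 ± 0.73 (Utx) and 0.54 ± 0.75 (Nap1; SD, n = 4 each). Single arrays then lay on both sides of 0 for each gene. As deposited, the uncentred means were 0.63 (Utx), 0.65 (Nap1) and 0.77 (Smr), which hold the array medians themselves. Centring on clones with 4 values, whose medians lie 0.17, 0.079, 0.035 and 0.084 above those of all clones, gave Smr 0.077 as deposited. With an array left out, turned means ran from -0.51 to -0.41 (Utx), 0.16 to 0.25 (Nap1) and -0.14 to 0.051 (Smr), and as-deposited means from -0.26 to 0.090, -0.13 to 0.058 and 0.14 to 0.19. Smr has no value in the fit on 4 arrays. The calls over all clones, 1 turned and 8 as deposited, became 0 and 745 without centring, 32 and 59 with the dye coefficient, 0 and 24 on at least 2 arrays, and 0 and 1 on 4 arrays. They were 4 as deposited without discordant spots, and 1 to 12 turned and 3 to 19 as deposited with an array left out.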

Other observations

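Beside the members, the class of nuclear receptors and factors that recruit Smr had the most genes on at least 3 arrays, 3 of 13. Nuclear receptors are transcription factors that ligands switch and that corepressors such as Smr can silence. The 13 genes had 29 clones on the array, more than any other class. Of all clones with 1 gene symbol, 7.33% were measured on at least 3 arrays. ERR, the estrogen-related receptor, a regulator of sugar metabolism in flies, stood at 0.32, 0.30 and 0.22 on arrays 1, 3 and 4, a mean of 0.28 ± 0.052 as deposited and -0.066 ± 0.34 turned (SD, n = 3 each). Like Smr it was above 0 on each of these arrays. svp (seven-up), which specifies photoreceptor types, stood at -0.19, 0.42 and 0.27 on the same arrays, a mean of -0.29 ± 0.12 turned and 0.17 ± 0.32 as deposited (SD, n = 3 each), on the same side of 0 as Utx on each. Hnf4, a fatty acid sensing receptor, lay on both sides of 0 under both readings (-0.062 ± 0.26 turned, 0.070 ± 0.26 as deposited, SD, n = 4 each). These were not tested as single genes.

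The other 5 receptors had a value on 1 array. On array 1 EcR, the ecdysone receptor that Smr binds, stood at -0.56, its partner usp at 0.28 and Hr96, a receptor that responds to foreign compounds, at -1.63. As deposited, dsf stood at -1.29 on array 4 and Hr83 at -0.12 on array 3. Of heterochromatin genes, that of HP1a, which binds methylated lysine 9 of H3, had 0.077 and 0.044 on arrays 1 and 3, HP1b 0.18 and -0.72 on the same arrays, and wde -0.46 on array 1.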
